A study of Mus musculus with 2 samples.

Results

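The Hox genes of the 4 mouse Hox clusters were compared between the telencephalon and the whole body of the fetus. Members were the rows whose gene symbol is Hoxa, Hoxb, Hoxc or Hoxd followed by a number, which gave 39 of the 43437 genes in the table. They comprised 11 genes of cluster a, 10 of cluster b, 9 of cluster c and 9 of cluster d, in 13 paralog groups numbered from the anterior to the posterior end of each cluster. On GRCm38 cluster a lies at chr6:52155590-52260880, cluster b at chr11:96194316-96368256, cluster c at chr15:102921103-103036852 and cluster d at chr2:74668310-74765142. Both libraries came from wild-type fetuses of ICR, an outbred mouse stock, at E12.5 without any treatment. Of the 2 libraries, 1 is of the whole body and 1 of the telencephalon, the front part of the embryonic brain that forms the cerebral cortex and the basal ganglia. The labels do not give the number or the sex of the fetuses, and do not say if the head was part of the whole body sample. The TruSeq RNA v2 kit used for the libraries takes polyadenylated RNA and keeps no record of strand, and sequencing was on a HiSeq 2000.

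Hox genes encode homeodomain transcription factors that give cells their position along the axis from the hindbrain to the tail. Within a cluster the genes lie in the order in which their domains follow each other along the body, and genes of the same number in different clusters (paralogs) have like sequences and overlapping roles. Hox proteins bind DNA together with TALE homeodomain partners of the PBX and MEIS families, and Hox genes are known to be largely silent in the normal forebrain.

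Levels are FPKM, fragments per kilobase of transcript and of the mapped library, as the authors deposited them. The size of the FPKM steps gave estimated depths of 29300000 fragments for whole body and 22700000 for telencephalon, and from these the number of fragments behind each value was estimated. For a transcript of 2000 bases, 3 fragments correspond to 0.0609 FPKM in whole body against 0.0793 FPKM in telencephalon. A percent of whole body below is the ratio of estimated fragments after scaling by these depths, and its exact 95% binomial interval covers counting error only. With 1 library per group the differences have no replicate check, and no test was made. On the log2(FPKM + 1) scale used below, 10 of the 11 telencephalon markers were higher by 2-fold or more in the telencephalon library. Dlx2 stood at 212 against 5.40 FPKM. Emx2, the 1 marker within 2-fold on that scale, stood at 4.75 against 1.93 FPKM, a raw ratio of 2.46.

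All 39 Hox genes had a value above 0 in whole body, whereas 13 were listed at 0 in telencephalon. Estimated fragments over the 39 genes came to 10021 in whole body and 210 in telencephalon, a level of 2.70% of whole body (interval 2.35% to 3.10%). The highest Hox value was 46.0 FPKM in whole body (Hoxb8) and 0.778 FPKM in telencephalon (Hoxb1). The median over the 39 genes was 4.77 FPKM in whole body against 0.0647 FPKM in telencephalon. In telencephalon 11 genes rested on 1 to 3 fragments and 15 on more than 3, of which 5 (Hoxb2, Hoxb1, Hoxa9, Hoxb3 and Hoxa3) had 10 or more. In bulk tissue, fewer cells that express a gene and less RNA per cell cannot be told apart.

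For each gene the 2 libraries were set against each other as a log2 ratio on the log2(FPKM + 1) scale, which understates the change of low genes. Of the 39 genes, 31 were at least 2-fold lower in telencephalon on this scale and 0 at least 2-fold higher. Among the 24807 genes above 0 in either library, 12.8% were lower by that amount. A gene under 1 FPKM in whole body cannot be 2-fold lower on this scale, so genes that could not be called reduce this share. The floor for a measured gene, 1 FPKM in either library, left 33 Hox genes, and each of these passed it through the whole body value, since 0 Hox genes reached 1 FPKM in telencephalon. Their counts are therefore descriptions. Of the 33, 31 were at least 2-fold lower, 2 lay within 2-fold (Hoxb13 and Hoxd1) and 25 were at least 4-fold lower. Of the 14987 measured genes in these libraries 21.2% were at least 2-fold lower, 8.23% at least 4-fold lower and 9.39% at least 2-fold higher. The median log2 ratio was -2.46 over the 33 Hox genes and -0.16 over all measured genes. The 6 genes under the floor included Hoxa11, Hoxb1, Hoxc11, Hoxc12 and Hoxc13.

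**Figure D1:**
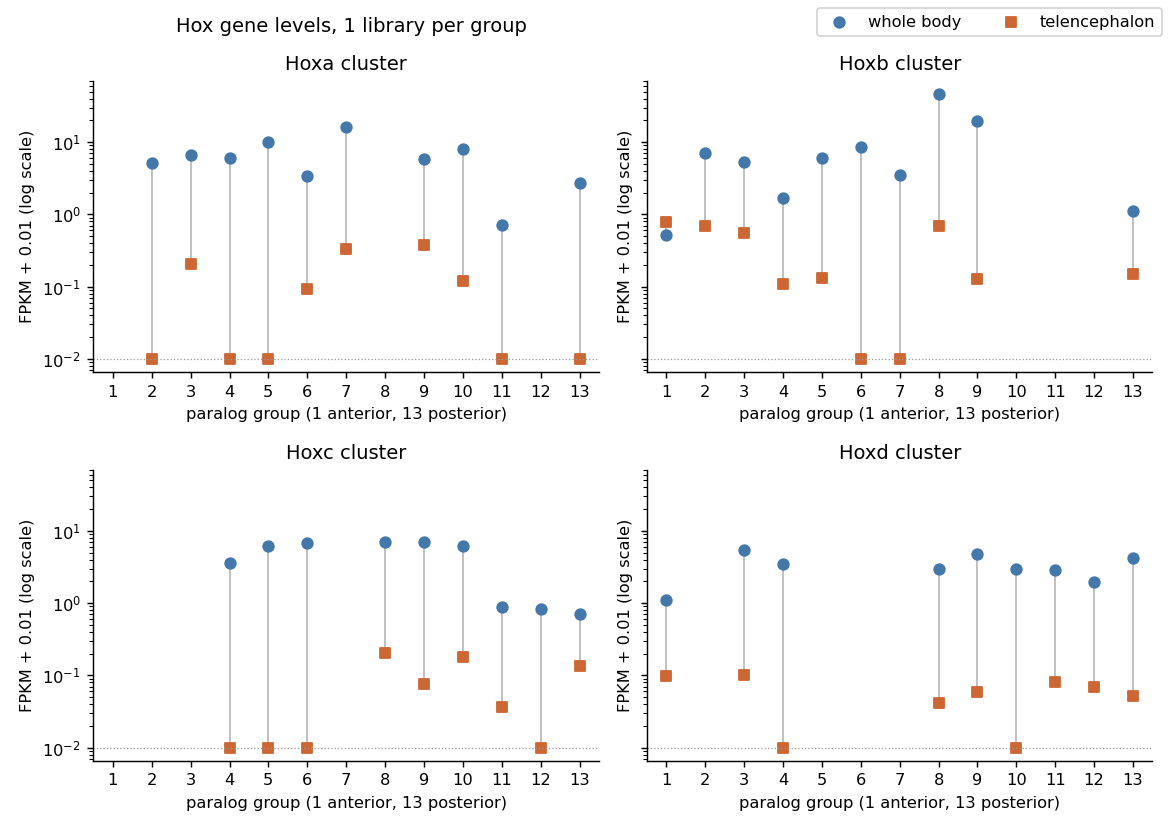
Level of 38 Hox genes, FPKM + 0.01 on a log axis, against paralog group, with 1 panel per cluster, blue circles for whole body and orange squares for telencephalon. Squares on the dotted line are genes listed at 0 in telencephalon, and Hoxb1 is the 1 gene whose telencephalon value lies above its whole body value.

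By cluster, the median whole body level was 5.87 FPKM in cluster a, 5.64 in cluster b, 6.06 in cluster c and 2.999 in cluster d. Cluster b held the highest share in telencephalon, 4.37% of whole body in cluster b (121 against 3577 fragments, interval 3.61% to 5.23%). The corresponding levels were 2.18% in cluster a (49 against 2903, 1.61% to 2.89%), 1.46% in cluster c (23 against 2027, 0.926% to 2.20%) and 1.45% in cluster d (17 against 1513, 0.842% to 2.33%). Cluster b thus lay above the other clusters beyond counting error, while the intervals of clusters a, c and d overlapped. The position of cluster b rested on its 3 most anterior genes. Without Hoxb1, Hoxb2 and Hoxb3, a set chosen after the values were seen, the other 7 genes of cluster b stood at 1.35% (31 against 2967 fragments, 0.914% to 1.92%).

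Along the paralog groups, the anterior genes kept the largest share. Groups 1 to 4 stood at 6.51% of whole body (114 against 2260 fragments, 5.35% to 7.86%). Groups 5 to 8 stood at 1.05% (32 against 3924, 0.719% to 1.49%) and groups 9 to 13 at 2.15% (64 against 3837, 1.65% to 2.76%), so the middle of the clusters had the lowest value of the 3 bands. Hoxa9 supplied 24 of the 64 telencephalon fragments of groups 9 to 13, and without it these stood at 1.46% (40 against 3525, 1.04% to 1.998%), which overlaps the interval of groups 5 to 8. The anterior share again came from cluster b, where groups 1 to 4 stood at 17.1% (95 against 718 fragments, 13.6% to 21.2%), against 1.59% (19 against 1542, 0.955% to 2.49%) for groups 1 to 4 of clusters a, c and d together. By single group the share was 40.1% in group 1, 9.65% in group 2, 4.37% in group 3, 1.02% in group 4, 0.533% in group 5 and 0.228% in group 6, the last on 1 telencephalon fragment. From group 7 to group 12 it lay between 1.48% and 2.71%, and in group 13 at 3.98% (14 fragments, 2.16% to 6.75%). The decline from group 1 to group 4 exceeded counting error between each pair of neighbours, whereas the intervals of neighbouring groups from 4 to 13 overlapped. That decline rested on cluster b. Hoxb1 supplied 31 of the 36 telencephalon fragments of group 1, Hoxb2 all 40 of group 2 and Hoxb3 19 of the 33 of group 3. Hoxb1 was under 1 FPKM in both libraries. Of the 40 Hoxb2 fragments 37 were assigned to an isoform annotated as keeping an intron. The coding isoform of Hoxb2 stood at 1.64% of whole body on 3 fragments, so the place of group 2 above group 3 depended on the other isoform. Outside cluster b the order differed, with Hoxa2 of group 2 at 0 fragments and Hoxa3 and Hoxd3 of group 3 at 10 and 4.

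**Figure D2:**
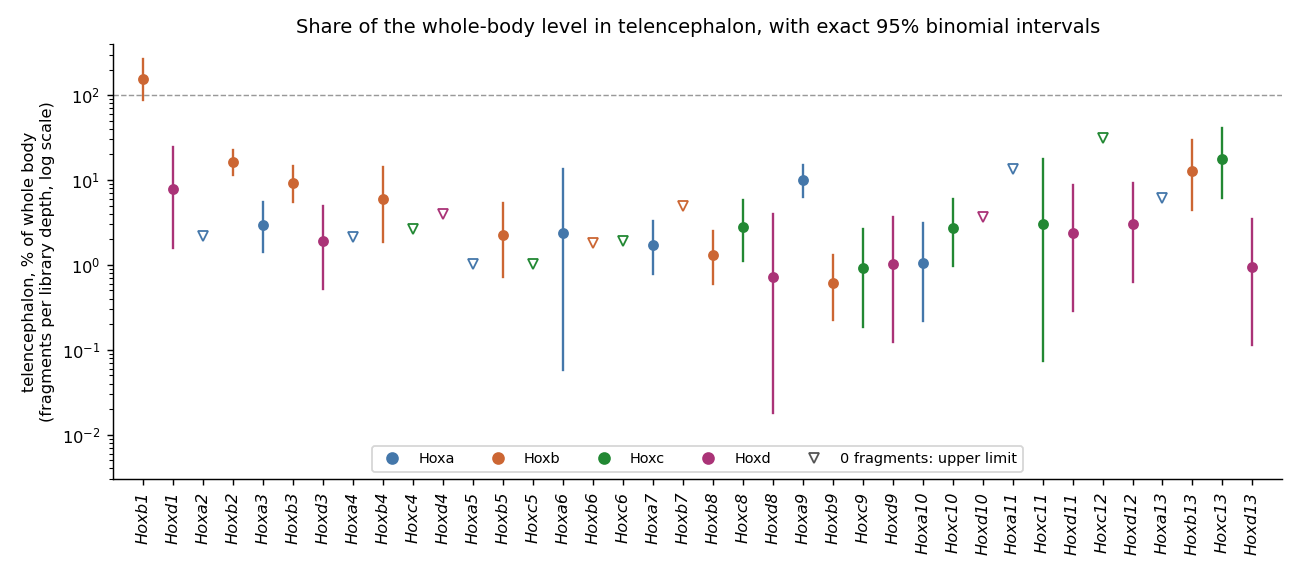
Telencephalon level of 38 Hox genes in percent of whole body (log axis), ordered by paralog group and coloured by cluster, with exact 95% binomial intervals of counting error as vertical lines. Open triangles are upper limits for genes with 0 telencephalon fragments, and Hoxb1 at 154% is the 1 point above the dashed line at 100%.

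Upstream sequences are shown for 4 genes that mark the range of the data, as chosen after the values were seen. Hoxb1 is the gene not lower in telencephalon, Hoxb8 has the highest whole body FPKM, Hoxa5 has many whole body fragments and none in telencephalon, and Hoxa2 is an anterior gene at 0 in telencephalon. The sequences are from RefSeq promoter windows of build GRCm38.p6, which were found for 22 of the 39 Hox genes (24 windows), are printed 5′ to 3′ on the gene's strand, and end just before the annotated start. They cover chr11:96365508-96365751 (plus strand), chr11:96281655-96281904 (plus), chr6:52204588-52204837 (minus) and chr6:52164832-52165081 (minus). Capitals mark matches to TGATNNAT on either strand, the form of site bound by paired PBX and HOX proteins.
Hoxb1: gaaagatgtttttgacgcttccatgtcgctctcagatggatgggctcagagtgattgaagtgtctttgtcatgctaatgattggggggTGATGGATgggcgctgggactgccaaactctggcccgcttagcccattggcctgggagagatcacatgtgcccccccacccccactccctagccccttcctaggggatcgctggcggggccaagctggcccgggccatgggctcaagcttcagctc
Hoxb8: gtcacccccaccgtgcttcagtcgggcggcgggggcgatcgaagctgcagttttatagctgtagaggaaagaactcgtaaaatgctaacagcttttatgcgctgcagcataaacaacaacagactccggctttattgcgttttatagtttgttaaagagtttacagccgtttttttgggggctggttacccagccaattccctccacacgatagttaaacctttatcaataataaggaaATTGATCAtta
Hoxa5: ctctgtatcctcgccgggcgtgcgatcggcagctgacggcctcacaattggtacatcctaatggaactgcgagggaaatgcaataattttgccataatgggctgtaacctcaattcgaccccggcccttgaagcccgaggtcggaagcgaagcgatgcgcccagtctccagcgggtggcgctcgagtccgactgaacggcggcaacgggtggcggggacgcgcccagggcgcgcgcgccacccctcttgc
Hoxa2: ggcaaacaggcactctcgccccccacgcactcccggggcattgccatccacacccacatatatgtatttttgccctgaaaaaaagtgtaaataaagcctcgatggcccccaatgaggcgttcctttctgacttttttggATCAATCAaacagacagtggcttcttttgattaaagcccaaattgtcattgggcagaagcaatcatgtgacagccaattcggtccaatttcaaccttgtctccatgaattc

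The match in the Hoxb1 sequence, TGATGGAT, begins 156 bases before the annotated start. The match in Hoxb8 begins 11 bases and that in Hoxa2 111 bases before it, and the Hoxa5 sequence holds 0 matches. Over whole 300-base windows, which run 250 bases before to 50 after the RefSeq start, TGATNNAT was found in 4 of 24 Hox windows (16.7%; Hoxa2, Hoxb1, Hoxb8 and Hoxd11) and in 8.85% of the 32851 windows of all genes. The retinoic acid receptor half-site AGGTCA was in 7 of 24 Hox windows (29.2%) and in 16.3% of all, the caudal-type motif TTTATG in 5 of 24 (20.8%) against 11.9%, and TATAAA in 4 of 24 (16.7%) against 13.6%. Both strands were searched. Genes with and without a TGATNNAT match included ones listed at 0 in telencephalon (Hoxa2 with, Hoxa5 without). The Hox windows held a median of 14.5 CG pairs, from 4 to 45, against a median of 7 over all windows. These are matches of letters and were not tested as sites.

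Group 1 genes pattern the hindbrain. Hoxb1, which specifies the rhombomere that gives rise to facial motor neurons, stood at 0.502 FPKM in whole body against 0.778 in telencephalon, from about 26 and 31 fragments. Its telencephalon level was 154% of whole body with an interval of 88.4% to 270%, so the 2 libraries did not differ beyond counting error. It was the 1 gene of 39 with the higher value in telencephalon, and the interval of each of the other 38 stayed under 50% of whole body. Its signal lay on 1 isoform of 2086 bases, and its exons overlap no other annotated gene. Hoxd1, which acts in pain-sensing neurons, stood at 1.08 and 0.0864 FPKM (49 and 3 fragments).

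Hoxb2 and Hoxa2 are active in the hindbrain and the neural crest of the pharyngeal arches, where Hoxa2 sets the identity of the second arch. Hoxb2 stood at 7.15 FPKM in whole body against 0.684 in telencephalon (318 and 40 fragments), 16.2% of whole body (11.4% to 22.6%). Hoxa2 stood at 5.09 FPKM in whole body and was listed at 0 in telencephalon (217 and 0 fragments, at most 2.21%). The Hoxb2 signal was divided differently between its isoforms in the 2 libraries. The coding isoform of 1628 bases had 236 fragments in whole body and 3 in telencephalon, 1.64% of whole body (0.336% to 4.85%). An isoform of 3134 bases annotated as keeping an intron had 82 and 37 fragments, 58.2% of whole body (38.4% to 86.8%). Thus 37 of the 40 telencephalon fragments of Hoxb2 were assigned to a transcript that is not annotated as coding. The antisense gene Hoxb3os covers 58.5% of the coding isoform and 19.1% of the other, and without strand its reads cannot be told apart from those of Hoxb2. Over the isoforms of all 39 genes, those that keep an intron held 2.19% of Hox fragments in whole body (1.91% to 2.49%) and 19.6% in telencephalon (14.4% to 25.5%). Without Hoxb2 the shares of the same totals were 1.37% (1.15% to 1.61%) and 1.97% (0.521% to 4.81%).

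In group 3, Hoxb3 stood at 5.25 FPKM in whole body against 0.537 in telencephalon (266 and 19 fragments, 9.22%, 5.46% to 14.7%). Hoxa3, needed for the thymus and parathyroid of the third arch and pouch, stood at 6.66 and 0.195 FPKM (437 and 10 fragments, 2.95%). Hoxd3, which shapes the first neck vertebra, stood at 5.34 and 0.0898 FPKM (272 and 4 fragments). Hoxb3 was above both paralogs in telencephalon, and its interval did not overlap that of Hoxd3 (0.513% to 4.92%) but touched that of Hoxa3 (1.41% to 5.48%). Of the Hoxb3 exon bases 52.9% lie under Hoxb3os, which stood at 6.44 and 0.538 FPKM itself. Of the Hoxd3 exon bases 62.4% are shared with same-strand genes, Hoxd4 among them, so the division of reads between these is uncertain. Hoxb1, Hoxb2 and Hoxb3 together held 6.08% of Hox fragments in whole body (609, 5.62% to 6.56%) and 42.9% in telencephalon (90 of 210, 36.1% to 49.9%). The other 36 genes together stood at 1.65% of whole body (1.36% to 1.97%).

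Group 4 genes mark the caudal hindbrain and the neck. Hoxa4 (5.997 FPKM), Hoxc4 (3.61) and Hoxd4 (3.42) were listed at 0 in telencephalon, from 224, 180 and 123 whole body fragments. Hoxb4 stood at 1.65 FPKM in whole body against 0.0985 in telencephalon (109 and 5 fragments). The cluster b member was therefore the lowest of group 4 in whole body and the 1 with fragments in telencephalon.

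Groups 5 to 8 act in the neck, the forelimb level and the thorax, and had the highest median whole body level of the 3 bands, 6.77 FPKM against 4.35 in groups 1 to 4 and 2.89 in groups 9 to 13. Hoxa5, which is required for lung and airway formation, stood at 10.1 FPKM in whole body and at 0 in telencephalon (463 and 0 fragments, at most 1.03%). Hoxc5 stood at 6.06 FPKM and 0, also from 463 whole body fragments, and Hoxb5 at 6.04 and 0.122 FPKM (285 and 5 fragments). Hoxc6, which marks motor neurons of the forelimb level, stood at 6.77 FPKM and 0, and Hoxb6 at 8.49 FPKM and 0. Hoxa6 stood at 3.39 and 0.0817 FPKM, the latter from 1 fragment. Group 6 had the smallest share of the 13 groups, 1 fragment in telencephalon against 566 in whole body.

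In group 7, Hoxa7 stood at 16.2 FPKM in whole body against 0.323 in telencephalon (672 and 9 fragments), and Hoxb7 at 3.44 FPKM and 0. In group 8, Hoxc8, which sets motor neuron pools at the forelimb level, stood at 6.99 and 0.194 FPKM (320 and 7 fragments), and Hoxd8 at 2.999 and 0.0309 FPKM, the latter from 1 fragment. Hoxb8, active in the trunk spinal cord and in blood precursors, stood at 46.0 and 0.673 FPKM (877 and 9 fragments, 1.32%, 0.604% to 2.53%). Its rank by FPKM depended on a 664-base isoform, which took 38.2 of its 46.0 FPKM in whole body but 384 of its 877 fragments, since short transcripts receive a large length correction. Without isoforms under 1000 bases, a setting chosen after seeing the data, Hoxb8 stood at 7.74 and 0.0886 FPKM, with a log2 ratio of -3.01 in place of -4.81. Hoxb9 was then the highest Hox gene in whole body.

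Groups 9 to 13 act from the thorax to the tail and in the limbs. Hoxb9 stood at 19.3 FPKM in whole body against 0.118 in telencephalon (1276 and 6 fragments, 0.607%, 0.222% to 1.32%), the largest number of whole body fragments of any Hox gene. Hoxc9, which organises the motor columns of the thoracic spinal cord, stood at 7.05 and 0.0647 FPKM (425 and 3 fragments), and Hoxd9 at 4.77 and 0.0488 FPKM (254 and 2). Hoxa9, also known from blood stem cells, stood at 5.87 and 0.372 FPKM (312 and 24 fragments, 9.93%, 6.27% to 15.1%). It was the 1 posterior gene with 10 or more telencephalon fragments, and its interval lay above those of its 3 paralogs. Of these 24 fragments 23 were on the coding isoform of 3226 bases, which had 239 of 312 in whole body, and its exons share 1.52% of bases with another gene, the miRNA gene Mir196b. Without isoforms under 1000 bases Hoxa9 stood at 3.40 and 0.372 FPKM, with a log2 ratio of -1.68 in place of -2.32.

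Group 10 genes suppress ribs in the lumbar region. Hoxa10 stood at 7.96 and 0.108 FPKM (368 and 3 fragments), Hoxc10 at 6.18 and 0.168 FPKM (288 and 6) and Hoxd10 at 2.96 FPKM and 0. Group 11 genes shape the sacrum, the kidney and the middle limb segment, and stood lower in whole body. Hoxd11 stood at 2.82 and 0.0712 FPKM (2 telencephalon fragments), Hoxc11 at 0.862 and 0.0261 FPKM (1 fragment) and Hoxa11 at 0.709 FPKM and 0. Of the Hoxa11 exon bases 34.98% lie under Hoxa11os, its antisense RNA, which was at 6.35 FPKM in whole body against 0 in telencephalon. In group 12, Hoxd12, which acts in the digits, stood at 1.94 and 0.0599 FPKM (126 and 3 fragments), and Hoxc12 at 0.817 FPKM and 0.

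Group 13 genes pattern the hand and foot and the end of the body axis. Hoxd13, the digit gene at the end of its cluster, stood at 4.25 and 0.0409 FPKM (270 and 2 fragments), and Hoxa13, its partner in the digits, at 2.75 FPKM and 0 (79 and 0 fragments). A pair of 766-base isoforms supplied most of the Hoxa13 level, and without isoforms under 1000 bases its whole body level was 0.903 FPKM, under the floor. Hoxb13, which limits growth of the tail, stood at 1.10 and 0.141 FPKM (61 and 6 fragments, 12.7%, 4.48% to 29.3%). Hoxc13, which is required for hair and nails, stood at 0.701 and 0.124 FPKM (44 and 6 fragments, 17.6%, 6.13% to 41.5%). The share of Hoxb13 and Hoxc13 was above that of Hoxd13 (0.956%, 0.115% to 3.49%) beyond counting error, on 6 fragments each.

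**Figure D3:**
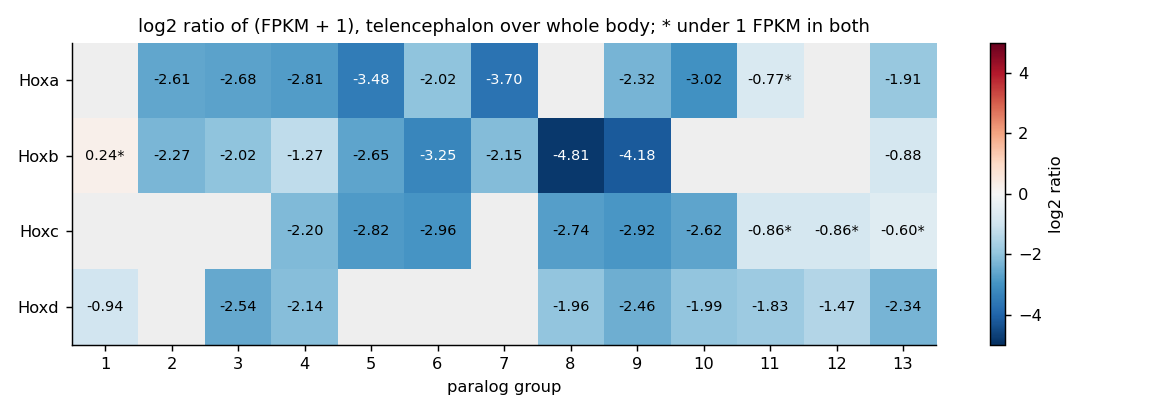
Log2 ratio of (FPKM + 1), telencephalon over whole body, for each cluster (rows) and paralog group (columns), with blue for lower in telencephalon and grey where no value is shown. Values with an asterisk are genes under 1 FPKM in both libraries, and the darkest cells are Hoxb8 (-4.81) and Hoxb9 (-4.18).

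Other genes annotated inside the clusters were also low in telencephalon, but most of their signal came from genes whose exons overlap Hox exons. Inside the clusters 20 genes other than Hox genes were above 0 in at least 1 library, 17 of them non-coding, with 1070 fragments in whole body and 44 in telencephalon (5.31%, 3.83% to 7.17%). Of these, 13 share exon bases with a Hox gene and held 935 and 30 of the fragments, among them Hoxb3os (376 and 24), Hoxa11os (163 and 0) and Gm28230 (162 and 0), and their reads cannot be told apart from those of the Hox genes. The 7 without such overlap stood at 13.4% (14 against 135 fragments, 7.13% to 23.2%). Most of that came from Gm53 of cluster b, at 2.64 and 0.533 FPKM, with 101 whole body and 13 telencephalon fragments. The 9 of the 20 genes that reached the floor, again through whole body, were all at least 2-fold lower, beside 21.2% of all measured genes. Of 10 listed non-coding genes in or beside the clusters 5 were measured and 5 were lower, each with exons that overlap a Hox gene. They were Hoxa11os, Hoxb3os, Hoxaas2 (2.37 and 0.244 FPKM), Hoxaas3 (1.61 FPKM and 0) and Haglr (1.15 FPKM and 0). Hottip (0.306 FPKM), which lies just outside cluster a, Hoxb5os (0.373) and Hotairm1 (0.0871) were also at 0 in telencephalon, and Hotair stood at 0.0607 and 0.0263 FPKM, which is 3 fragments and 1. All 6 annotated miRNA hairpin genes looked up inside the clusters (the Mir10, Mir196 and Mir615 genes) were listed at 0 in both libraries, which hold polyadenylated RNA. Evx1 and Evx2, the even-skipped homologs at the ends of clusters a and d, were under the floor, at 0.749 and 0.138 FPKM and at 0.954 and 0.171 FPKM.

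Of the 24 nearest measured coding genes, 3 on each side of each cluster, 21 lay within 2-fold, 3 were lower and 0 higher, with a median log2 ratio of -0.04. Skap2 beside cluster a (7.40 and 1.11 FPKM) and Atf7 beside cluster c (29.0 and 13.4 FPKM) were lower. So was Nfe2l2, on the anterior side of cluster d (15.2 and 4.001 FPKM). Beside cluster b, Atp5g1 stood at 285 and 228 FPKM, Snx11 at 11.3 and 14.7 and Cbx1 at 28.3 and 30.5. Skap1, beside the Hoxb1 end of cluster b, stood at 0.309 and 1.05 FPKM (11 and 31 fragments). Its raw ratio was 3.41, and it counted as within 2-fold only on the log2(FPKM + 1) scale. Mtx2, beside the anterior end of cluster d, stood at 32.5 and 27.3 FPKM. The share of flanking genes at least 2-fold lower was thus 3 of 24, beside 21.2% of all measured genes.

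**Figure D4:**
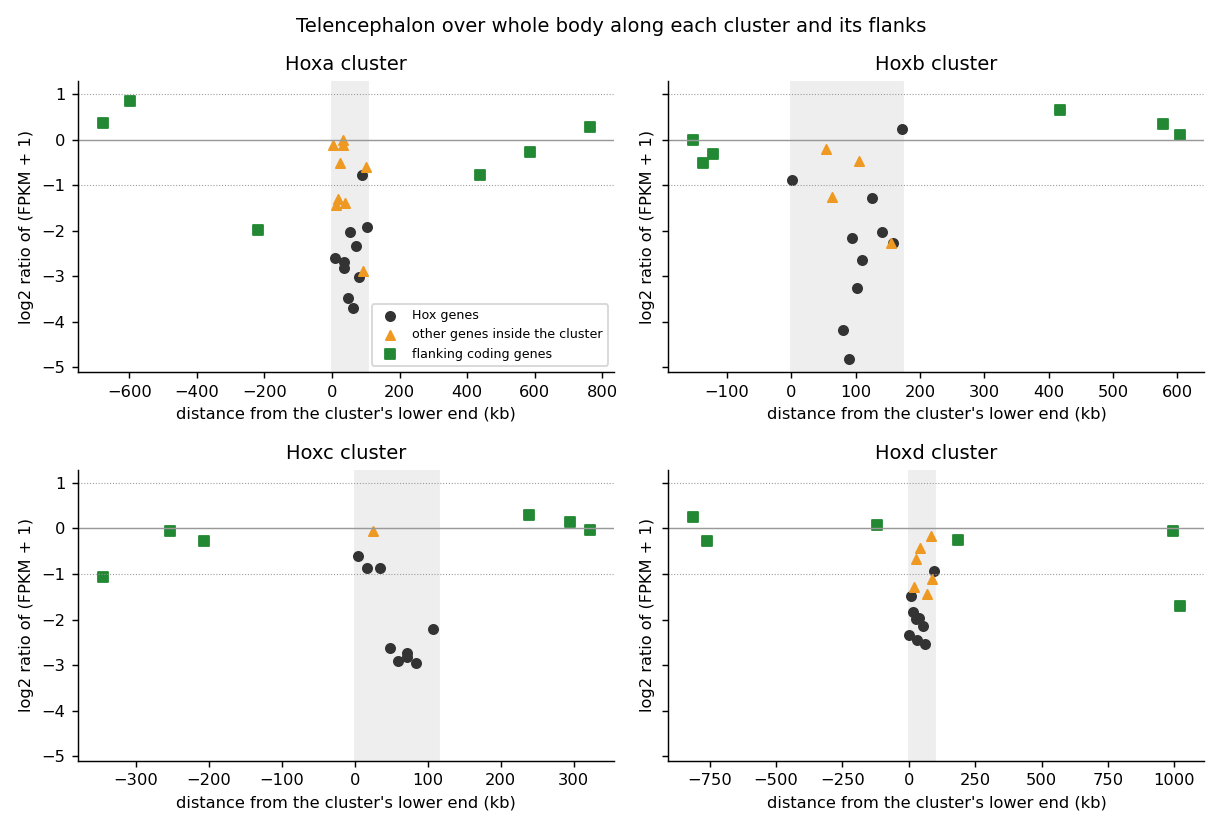
Log2 ratio of (FPKM + 1), telencephalon over whole body, against distance in kb from the lower end of each cluster, for Hox genes (black circles), other genes inside the cluster (orange triangles) and the 3 nearest measured coding genes on each side (green squares). Grey bands are the clusters, dotted lines mark 2-fold, and 21 of the 24 green squares lie between them.

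The DNA-binding partners of Hox proteins showed the opposite direction or little difference. Of 9 measured TALE genes 4 were higher in telencephalon by 2-fold or more and 0 lower, with a median log2 ratio of 0.75. Among all measured genes 9.39% were higher and 21.2% lower by that amount. Pbx4 stood at 4.56 FPKM in whole body against 22.2 in telencephalon, Meis2 at 67.7 and 200.9, Pbx3 at 27.6 and 68.1 and Meis3 at 17.7 and 43.2. The lowest ratios were those of Meis1 (37.2 and 24.2 FPKM) and Pbx2 (48.8 and 47.6). All 9 TALE genes were above 14 FPKM in telencephalon, where the highest Hox gene stood at 0.778.

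Regulators that act upstream of Hox genes were mixed. Of 15 listed genes 9 were measured, 6 of them lower and 0 higher, beside 21.2% and 9.39% of all measured genes. The median log2 ratio of the 9 was -1.24. Those that were lower belong to retinoic acid synthesis, breakdown and reception. Aldh1a2, which makes retinoic acid in trunk mesoderm, stood at 21.6 FPKM in whole body against 0.0456 in telencephalon. The receptor genes Rarg, Rarb and Rara stood at 38.9 and 1.70, 10.9 and 2.52, and 30.9 and 13.02 FPKM. The degrading enzyme gene Cyp26b1 stood at 11.6 and 2.17 FPKM, Cyp26a1 at 1.36 and 0, and Cyp26c1 at 0.789 and 0. Gbx2, which helps place the border of midbrain and hindbrain, lay within 2-fold at 2.88 and 4.52 FPKM. Egr2, a regulator of hindbrain segments, was under the floor at 0.529 and 0.447 FPKM. Of the caudal genes, Cdx1 stood at 0.215 FPKM and 0, Cdx2 at 0.0878 and 0.0228, and Cdx4 at 0.0623 and 0.405.

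Chromatin regulators of the clusters differed little. Of 16 listed Polycomb, Trithorax and related genes 15 were measured and 0 were past 2-fold in either direction. Among all measured genes 21.2% were lower and 9.39% higher by that amount. The median log2 ratio of the 15 was 0.42. The lowest were the Polycomb genes Suz12 (14.6 and 13.6 FPKM) and Eed (9.85 and 9.17), and the highest were Bmi1 (8.68 and 17.0) and the demethylase gene Kdm6b (29.2 and 48.7). The methyltransferase genes Ezh2, of Polycomb, and Kmt2a, of Trithorax, stood at 43.7 and 70.8 and at 17.8 and 24.1 FPKM.

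Markers of other tissues gave the levels beside which the remaining Hox signal stands. Their counts of lower genes stand beside 21.2% of all measured genes. Hindbrain and spinal cord markers, 10 genes with 8 measured and 8 lower, stood at 2.61% of whole body (53 against 2619 fragments), summing to 33.1 FPKM in whole body against 1.13 in telencephalon. None was at 0, with Lmx1b at 8.14 and 0.00986 FPKM. Trunk and limb mesoderm markers, 10 of 10 lower, stood at 2.15%, summing to 574 and 11.9 FPKM, with Meox2 at 0 in telencephalon. Of the 7 peripheral nerve and neural crest markers 5 were lower and Isl1, which the ventral telencephalon also expresses, was higher (11.6 and 47.5 FPKM). Connective tissue markers, 7 of 7 lower, stood at 0.635%, muscle markers, 6 of 6 lower, at 0.280% and liver markers, 6 of 6 lower, at 0.142%, with Serpina1a at 0. Of the red cell markers 4 of 6 were lower and the list stood at 28.4%. Hbb-y and Hba-x, which lay within 2-fold, supplied 14536 and 4604 of its 20128 telencephalon fragments. By FPKM the 4 lower genes stood between 0.959% (Klf1) and 6.34% (Alas2) of whole body. Col2a1, a cartilage collagen gene, supplied 54387 of the 63093 whole body fragments of the trunk and limb list, and the other 9 genes stood at 2.83% (191 against 8706 fragments, 2.44% to 3.27%). The Hox genes stood at 2.70% with Hoxb1, Hoxb2 and Hoxb3 and at 1.65% without them. Their order against the hindbrain and spinal cord list and the full trunk and limb list thus depended on which genes were counted. With either set they stood above the connective tissue, muscle and liver lists and below the red cell list. The part of any of these tissues in the Hox fragments of the telencephalon library was not tested.

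**Figure D5:**
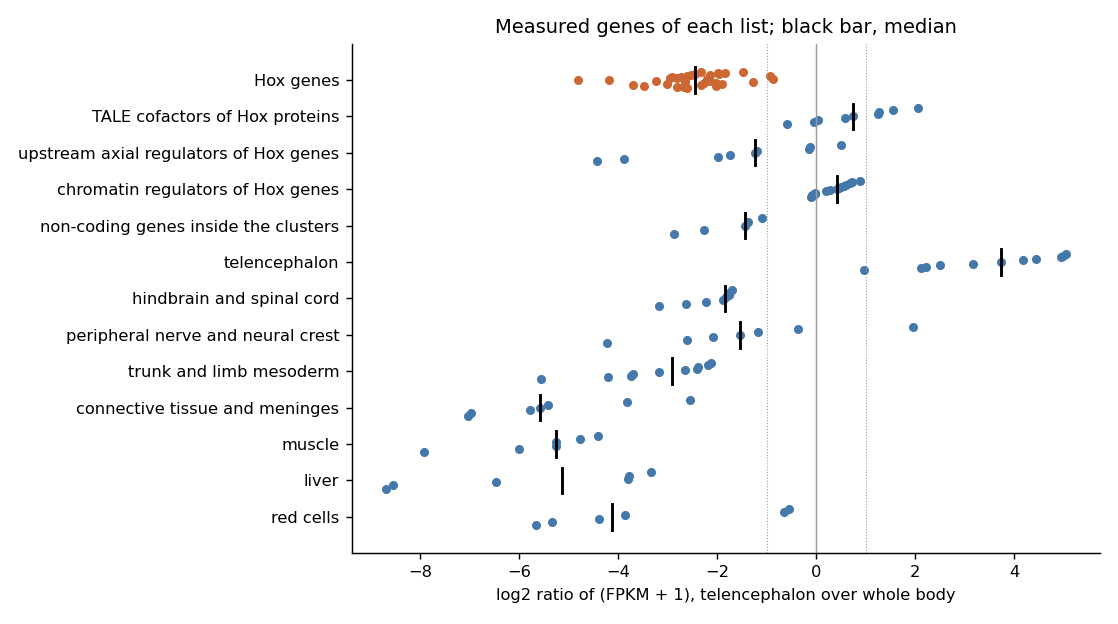
Log2 ratio of (FPKM + 1), telencephalon over whole body, for each measured gene of the Hox set (orange) and of the other lists (blue), with the median as a black bar and dotted lines at 2-fold. The Hox median of -2.46 lies between the medians of the hindbrain and spinal cord list and of the trunk and limb mesoderm list. Ratios on this scale depend on the whole body level. Its median over all members was 2.89 FPKM for hindbrain and spinal cord, 4.77 for Hox and 7.82 for trunk and limb.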

How the data were processed

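The authors deposited FPKM per gene and per isoform, 2 tables holding a column for each library. Per the submitters' processing notes the tools were TopHat, Cufflinks and Cuffdiff and the build was GRCm38, with versions and annotation release not stated. Coordinates, isoform classes, lengths and exon overlaps come from GENCODE M21 (the same build), to which 42276 of 43437 genes were matched by Ensembl identifier. FPKM is not a count, so no count model was run. FPKM carries length and depth scaling, and the division of reads among isoforms and overlapping genes was made by the authors' software.

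Depth was fitted to the FPKM steps of single-isoform genes of 800 to 8000 bases, with 322 bases subtracted from each length in whole body and 336 in telencephalon. In genes held out of the fit, whole numbers within 0.1 fragments were found for 94.4% of 1401 values in whole body and 93.8% of 1526 in telencephalon, where chance gives 20%. Fragment numbers are estimates from that fit, and a recovered gene count was not used in a test because FPKM is divided among isoforms.

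Log2 ratios used a pseudocount of 1 FPKM, a floor of 1 FPKM in either library and a 2-fold call, on python 3.11.15, pandas 2.3.3 and scipy 1.17.1. The fit and the calls were tested on simulated data. The Hox genes were named one by one, and some items that the naming rule selects are not reported here, though sums and counts include them. From each list of other genes of the pathway the 2 lowest and 2 highest measured members and those at 0 were named, and other named genes were picked with their values known. The members and lists were chosen with earlier results of these data known. Homeodomain sequences were not used here. Alternatives covered the pseudocount, the floor, library scaling and short isoforms.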

Additional observations from a re-analysis of the deposited data

How the results depend on the processing

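Hox genes at least 2-fold higher in telencephalon numbered 0 under every alternative run, and no median of a Hox set and no measured Hox gene changed direction. The number at least 2-fold lower was 31 of 33 measured genes with upper quartile scaling and without isoforms under 300 bases. It was 33 of 33 with a pseudocount of 0.1 or 0.5 FPKM, 31 of 39 with no floor and 37 of 39 with TPM. Without isoforms under 1000 bases (chosen after seeing the data) it was 29 of 31, and Hoxa6 and Hoxa13 were no longer measured. With a floor of 5 FPKM it was 19 of 19, where fewer genes were counted. In the main setting the median log2 ratio was -2.46 for the Hox genes, -2.68 for cluster a, -2.275 for b, -2.78 for c and -1.99 for d. Those of paralog groups 1 to 4, 5 to 8 and 9 to 13 were -2.24, -2.82 and -2.33. With a pseudocount of 0.1 FPKM the median log2 ratio was -4.94 for the Hox genes, -5.26 for cluster a, -4.79 for b, -5.33 for c and -4.84 for d, and -4.68, -5.26 and -4.88 for paralog groups 1 to 4, 5 to 8 and 9 to 13. With 0.5 FPKM these were -3.26, -3.48, -2.98, -3.57, -2.79, -3.00, -3.71 and -3.00. A smaller pseudocount enlarges ratios of low values by construction. With a floor of 5 FPKM the medians of cluster b and groups 9 to 13 were -2.95 and -2.92. Rescaled to TPM, those of cluster a, cluster d and groups 5 to 8 were -3.31, -2.79 and -3.71. The TPM scaling and the upper quartile scaling moved the median of all measured genes from -0.16 to -0.02 and -0.04. No paired analysis was possible because each group has 1 library. For the same reason no library could be left out. Under both smaller pseudocounts and TPM Hoxb13 and Hoxd1 also passed 2-fold. Depth limits the 24 genes with 3 or fewer telencephalon fragments, whose order in telencephalon cannot be read.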
